A study of Mus musculus with 21 samples.

Results

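The comparison was between FVF- cells of the mouse embryonic pancreas at E15.5 and the same sort at E14.5, where E is the embryonic day, a step of 1 day. FVF joins Foxa2, which regulates genes in endoderm, to Venus, a fluorescent protein, and FVF- cells are those that the sort left without its signal. All arrays titled FVF negative at these 2 days were taken, 3 per day, which made 6 of the 21 arrays in the series, and every gene was described. The embryos were of a mixed strain background (C57-Bl6/SV129/CD1), and the sort rests on the fusion, so all groups used here, the FVF+ cells of both days included, share that background and the fusion. Total RNA was measured on Affymetrix arrays, the values are log2 signals after robust multi-array averaging (RMA), and 19296 genes were tested. Replicates are called biological, but whether each had its own embryos or its own sort is not said, and the p-values then reflect only how far these arrays differ from one another, which may be technical. The codes in the array labels rise with day (9, 11 and 13 at E14.5, then 15, 17 and 19 at E15.5). The labels do not explain the codes, and if they follow the order of processing, day and order cannot be told apart.

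The pancreatic stroma surrounds the epithelial buds and holds mesenchyme, mesothelium, vessels, blood cells, nerves and neural crest cells. Mesenchymal signals of the fibroblast growth factor, Wnt, hedgehog and retinoic acid families are known to steer the growth of the epithelium. In the days compared here the epithelium branches and its tips turn into acinar cells that make digestive enzymes, while blood formation shifts from primitive red cells, which carry embryonic globins, to definitive cells made in the fetal liver.

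The labels were checked on markers. Foxa2 had values of 8.48, 8.05 and 8.89 at E14.5 and 7.98, 8.56 and 8.24 at E15.5 in FVF- cells, a difference of -0.21 ± 0.18 (standard error, SE) that was not called (adjusted p = 0.495, limma), against FVF+ means of 11.31 at E14.5 and 11.09 at E15.5. The mean level of 28 mesenchyme genes was 10.73 to 10.82 in FVF- arrays at E14.5 and 10.76 to 10.80 at E15.5, above the 8.55 to 8.85 and 8.73 to 8.90 of FVF+ cells. The mean of 21 pancreatic epithelial genes was lower in FVF- than in FVF+ cells, but it varied between FVF- arrays, at 8.89, 8.29 and 9.69 at E14.5 and 8.67, 9.04 and 8.88 at E15.5. E14.5 replicate 3 had the highest epithelial level and E14.5 replicate 2 the lowest, so epithelial RNA differed more within E14.5 than between the days. E14.5 replicate 1 stood apart over all genes: its correlation with the other E14.5 arrays was 0.985 and 0.988 where those 2 correlated at 0.992, and the E15.5 arrays correlated at 0.993 to 0.994.

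Sequences are given for the members where one bears on the values described further on. The first is the promoter of Rarb, a retinoic acid receptor gene that is itself known to be switched on by retinoic acid through a repeated element; Rarb was lower at E15.5. The 250 bases before its start in RefSeq (GRCm38.p6, chr14:16575477-16575726, minus strand) hold a direct repeat with a spacer of 5 bases, in capitals, 53 to 37 bases before the start.
Rarb promoter: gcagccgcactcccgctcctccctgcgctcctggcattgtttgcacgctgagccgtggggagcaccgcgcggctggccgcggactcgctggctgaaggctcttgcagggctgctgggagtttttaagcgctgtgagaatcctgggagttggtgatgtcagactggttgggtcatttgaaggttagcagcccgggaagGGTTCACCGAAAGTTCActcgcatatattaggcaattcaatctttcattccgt
The next are 2 mature microRNAs in RefSeq, printed because the array measures their genes separately although the molecules match: miR-199b-3p (chr2:32318524-32318545, plus strand) and miR-199a-3p (chr9:21496498-21496519, minus strand). Capitals mark the seed, bases 2 to 8.
mmu-miR-199b-3p: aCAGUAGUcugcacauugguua
mmu-miR-199a-3p: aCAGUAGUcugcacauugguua
Both share the seed and every other base, so a target site cannot tell them apart. The Mir199b gene fell and Mir199a-1 was not called, but the 2 genes were not tested against each other.

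At E15.5, 355 genes were higher (1.84% of those tested) and 898 were lower (4.65%) than at E14.5 at an adjusted p under 0.05 in limma, so 28.3% of calls were rises. The counts of list members called that follow are to be read beside these shares. The median difference of all genes was 0.02 on the log2 scale. Among genes named by rule, the largest rise was in Try10, a digestive enzyme, and the largest fall in Hbb-y, an embryonic globin. The days' arrays did not overlap for 4841 of the 19296 genes, and for 340 of the rises and 884 of the falls. The largest named changes were picked from these, so a lack of overlap was a condition for them and adds no support. Changes of 2-fold or more numbered 38 higher and 13 lower, so most falls were small and spread over many genes. The split between rises and falls depended on scaling, with 258 higher and 367 lower after cyclic loess normalization, or 41.3% rises.

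The calls drew on the spread shared over all 21 arrays. With the 6 arrays alone, limma called 1 gene, Ifi205, while 3788 genes had an unadjusted p under 0.05, and with the 10 FVF- arrays it called 30 higher and 93 lower. Of the 112 named genes called, 24 were still called with the 10 FVF- arrays and 1 with the 6 arrays. With replicate number as a block, 0 were still called. The lost calls given gene by gene below do not list these fits. E15.5 replicate 1 bore most on the counts, which were 90 higher and 208 lower without it. They were 206 and 463 without E14.5 replicate 3, 195 and 515 without E15.5 replicate 3, and 330 and 552 without E14.5 replicate 1. Leaving out E14.5 replicate 2 gave 250 and 819, and leaving out E15.5 replicate 2 gave 337 and 667. All 1253 called genes kept their sign in each of these fits. Fits to fewer groups leave each log2 difference as it was. Where the days' arrays did not overlap, leaving out 1 array could not turn the sign. The kept signs of such genes therefore add no support.

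**Figure D1:**
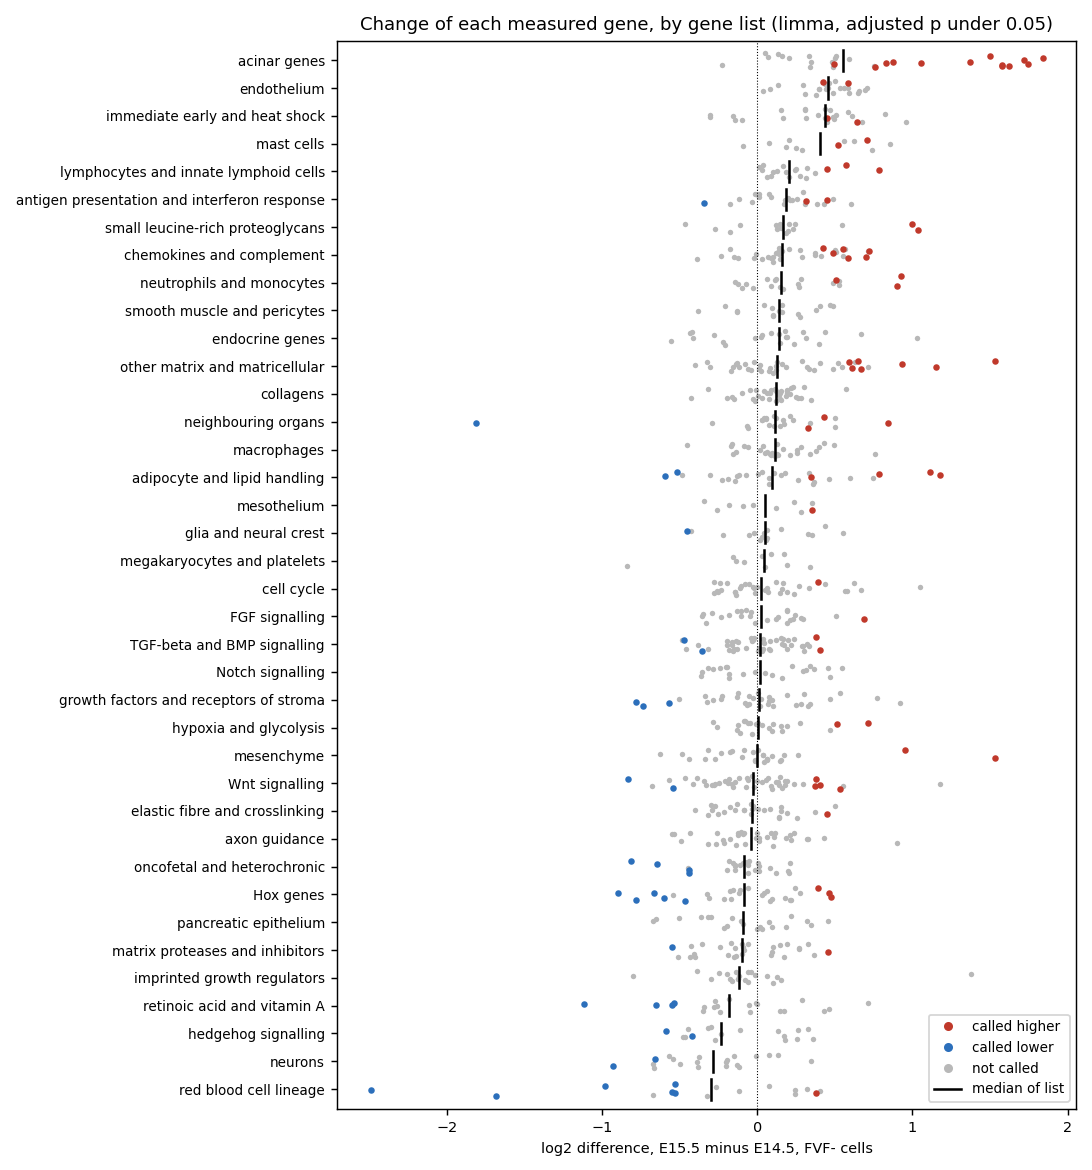
Each point is a measured gene, placed by its log2 difference between E15.5 and E14.5 in FVF- cells (horizontal axis) and grouped by gene list; red and blue points were called higher and lower (limma, adjusted p under 0.05), grey points were not called, and a black bar marks the median of the list. Acinar genes have the highest median, 0.55, with 13 of 28 members called, and the red blood cell list has the lowest, -0.30.

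Genes of acinar cells, the makers of pancreatic digestive enzymes, rose in FVF- cells: 13 of 28 measured members were higher, 0 lower, and the median difference was 0.55 against 0.02 for all genes. In these sorted pools, fewer or more cells of a type and less or more RNA per cell cannot be told apart. Try10, a trypsinogen, had values of 6.90, 6.42 and 6.99 at E14.5 and 9.10, 8.41 and 10.27 at E15.5. Every E15.5 array lay above every E14.5 array, and the difference of 2.49 ± 0.35 (adjusted p = 0.00214) was the largest rise among the genes named by rule. Probes for trypsinogens of near-identical sequence may not be told apart, and Try5, another of them, rose by 0.76 ± 0.17.

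Elastases and other enzymes moved the same way. Cela3b, an elastase, stood at 7.77, 7.34 and 8.03 at E14.5 and 9.34, 9.16 and 9.88 at E15.5, a rise of 1.75 ± 0.29 (adjusted p = 0.00369) with no overlap between the days. Cela2a, also an elastase, rose by 1.5 ± 0.25, and Rnase1, the pancreatic ribonuclease, by 1.84 ± 0.36 (adjusted p = 0.00859). Cpb1, a carboxypeptidase, had values of 7.10, 6.86 and 7.01 at E14.5 and 7.91, 8.37 and 9.84 at E15.5, so E15.5 replicate 3 stood well above the other E15.5 arrays. Clps, the cofactor of pancreatic lipase, rose by 1.62 ± 0.28 from values that were already high in E14.5 (11.97, 10.81 and 12.08 at E14.5 and 12.80, 13.23 and 13.70 at E15.5). Try10, Cela3b, Cela2a and Rnase1 were called in every fit that left out 1 array. Other acinar genes were not called: Cpa1, a carboxypeptidase of the branch tips and of acinar cells, differed by 0.50 ± 0.23 (adjusted p = 0.198), and Rbpjl, a transcription factor of acinar cells, by -0.23 ± 0.52 (adjusted p = 0.82).

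Acinar genes were far higher in FVF+ cells, where the list had a mean level of 10.35 to 10.73 at E14.5 and 11.20 to 11.31 at E15.5. In FVF- arrays the list stood at 8.04, 7.76 and 8.46 at E14.5 and 8.58, 8.76 and 9.25 at E15.5. E15.5 replicate 3 was highest and E14.5 replicate 2 lowest, and the days did not overlap. The epithelial list had 0 of 21 members called and a median difference of -0.09, which was 0.30 without E14.5 replicate 3 and -0.43 without E14.5 replicate 2, and the part of epithelial RNA in the acinar rise was not tested. Of the 13 calls, 6 remained in number without E15.5 replicate 3, 9 without E14.5 replicate 1, and 10 to 12 without any other array. Cel, a lipase activated by bile salts, had values of 8.47, 7.65 and 9.57 at E14.5 and 9.60, 9.99 and 10.84 at E15.5, a difference of 1.58 ± 0.34. Cel lost its call without E15.5 replicate 3 (1.23, adjusted p = 0.0536). Pnliprp1, a relative of pancreatic lipase, had values of 10.83, 9.95 and 12.18 at E14.5 and 12.05, 12.53 and 13.12 at E15.5 and a difference of 1.58 ± 0.43. Pnliprp1 lost its call without any 1 of E14.5 replicates 1 and 2 and E15.5 replicates 1, 2 and 3 (1.06 to 1.84).

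**Figure D2:**
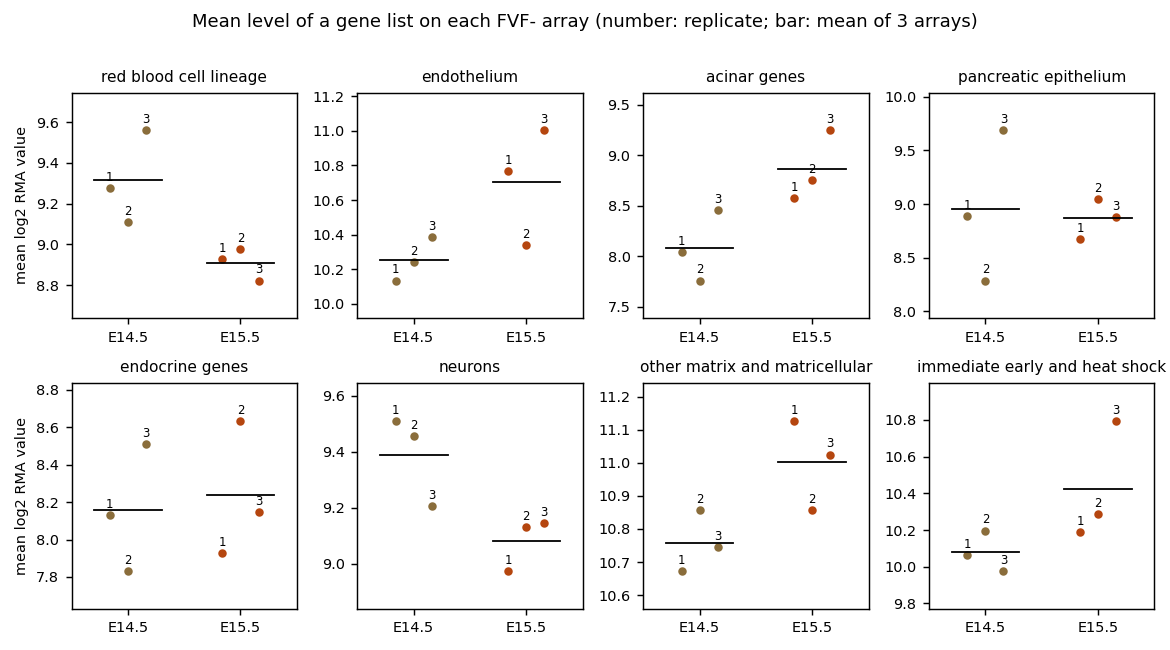
Each panel shows the mean log2 RMA value of a gene list on each FVF- array (vertical axis) at E14.5 and E15.5, with the replicate number at each point and a bar at the mean of 3 arrays. Acinar, red blood cell and neuronal lists do not overlap between the days, whereas the epithelial list spreads from 8.29 to 9.69 within E14.5.

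Embryonic globins fell. Hbb-y, the epsilon-like beta globin of primitive red cells, had values of 13.15, 13.14 and 14.11 at E14.5 and 9.94, 11.86 and 11.13 at E15.5, with the 3 E15.5 arrays below all E14.5 arrays and E15.5 replicate 1 lowest. The difference of -2.49 ± 0.67 (adjusted p = 0.0356) was the largest fall among named genes. Hbb-y lost its call without any 1 of E14.5 replicates 1, 2 and 3 and E15.5 replicates 1 and 3 (-1.97 to -2.65) and with cyclic loess normalization or an intensity trend with robust moderation. Hba-x, the zeta-like alpha globin, stood at 12.45, 12.46 and 13.57 at E14.5 and 10.26, 11.84 and 11.33 at E15.5, a difference of -1.68 ± 0.48 (adjusted p = 0.0434). Hba-x lost its call without any 1 of E14.5 replicates 1, 2 and 3 and E15.5 replicates 1 and 3 (-1.24 to -1.87) and with cyclic loess normalization, quantile normalization or an intensity trend with robust moderation. Hbb-bh1, the beta-like embryonic globin, stood at 7.72, 7.24 and 8.45 at E14.5 and 6.75, 6.83 and 6.89 at E15.5, a difference of -0.98 ± 0.23. Hbb-bh1 lost its call without E14.5 replicate 3 (-0.66, adjusted p = 0.0723) and E15.5 replicate 1 (-0.94, adjusted p = 0.0803). Globin probes of similar sequence may not be told apart.

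Other genes of red cells did not share that size. Of 16 measured members of the red blood cell list, 6 were lower and 1 higher, with a median of -0.30, which was -0.18 without E14.5 replicate 3 and -0.46 without E14.5 replicate 2. Alas2, the first enzyme of haem synthesis in red cells, differed by -0.55 ± 0.15, and Fech, the last enzyme of that pathway, by -0.53 ± 0.12. Gata1, a transcription factor of the lineage, was the 1 member called higher, at 0.38 ± 0.10, and Klf1, the factor that drives adult globin, was not called (0.24 ± 0.11). The count of lower members was 0 without E14.5 replicate 3, 2 without either E15.5 replicate 1 or E15.5 replicate 3, 3 without E14.5 replicate 1 and 5 without either of the remaining arrays. Alas2 lost its call without any 1 of E14.5 replicates 1 and 3 and E15.5 replicate 3 (-0.35 to -0.55) and with cyclic loess normalization or quantile normalization. Fech lost its call without E14.5 replicate 3 (-0.43, adjusted p = 0.0712) and E15.5 replicate 1 (-0.54, adjusted p = 0.0612) and with cyclic loess normalization. Gata1 lost its call without any 1 of E14.5 replicates 2 and 3 and E15.5 replicates 1, 2 and 3 (0.28 to 0.42) and with cyclic loess normalization, median centring or quantile normalization. The mean level of the list was 9.28, 9.11 and 9.56 at E14.5 and 8.93, 8.98 and 8.82 at E15.5, highest in E14.5 replicate 3. Hbb-y means in FVF- cells were 13.84 at E12.5 and 14.43 at E13.5, so the E15.5 values lay below those of all earlier days.

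**Figure D3:**
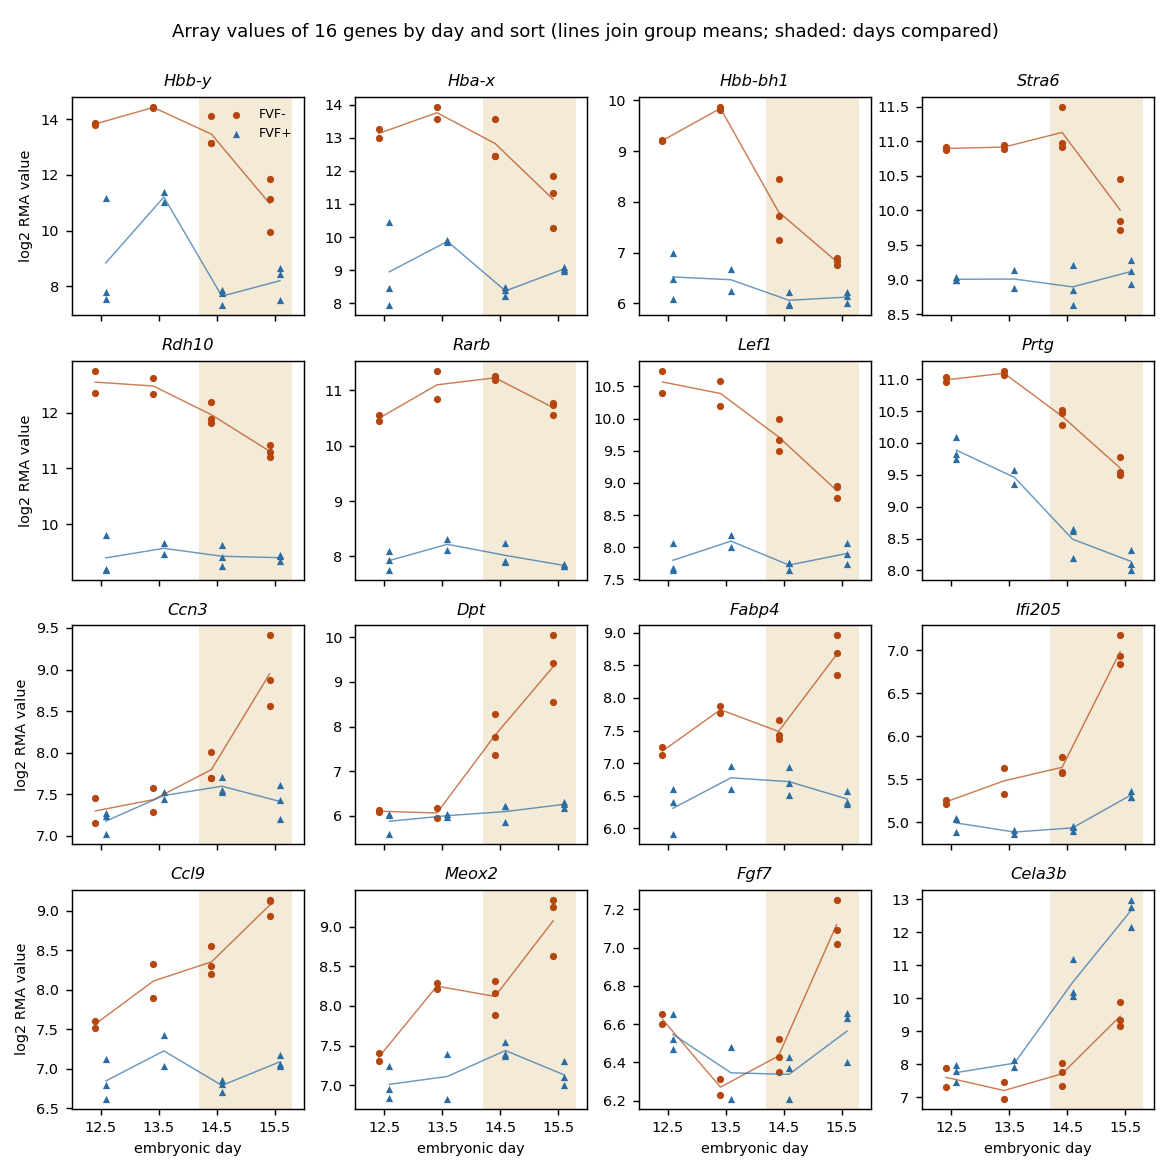
Each panel shows one gene, with the log2 RMA value of every array (vertical axis) against embryonic day (horizontal axis) for FVF- (circles) and FVF+ cells (triangles); lines join group means and the shading marks the days compared. Ifi205, Fabp4 and Ccn3 turn upward between E14.5 and E15.5 in FVF- cells, whereas Lef1 and Prtg are lower at E15.5 than at any earlier day.

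Interferon-inducible genes of the Ifi200 family, which bind DNA, rose with little spread, though all their values lay below 8.77, the threshold for dim genes. Ifi205 had values of 5.57, 5.76 and 5.58 at E14.5 and 6.93, 7.17 and 6.84 at E15.5, and its difference of 1.34 ± 0.09 (adjusted p = 9.15e-07) had the smallest SE relative to its size among the genes named here. Ifi203 stood at 6.48, 7.12 and 6.55 at E14.5 and 8.01, 8.04 and 8.46 at E15.5, a rise of 1.45 ± 0.16 (adjusted p = 0.00035). Neither pair of groups overlapped, and both genes were called without any 1 array, though the family's members are alike enough that probes may not separate them. Beyond this family the interferon and antigen presentation list had 2 of 24 members higher and 1 lower, beside 1.84% and 4.65% of all genes. With 1 array left out 0 were lower, and the higher count was 4 without E14.5 replicate 1, 2 without E14.5 replicate 2, 1 without E15.5 replicate 2 and 0 without any other. Its median, 0.19, was 0.09 without E14.5 replicate 3. Bst2, an interferon-induced membrane protein, differed by 0.45 ± 0.12, Psmb9, an immunoproteasome subunit, by 0.32 ± 0.09, and Stat2, which carries interferon signals, by -0.35 ± 0.10. Bst2 lost its call without any 1 of E14.5 replicates 2 and 3 and E15.5 replicates 1 and 3 (0.33 to 0.47). Psmb9 lost its call without any 1 of E14.5 replicates 1 and 3 and E15.5 replicates 1, 2 and 3 (0.22 to 0.35) and with array weights, cyclic loess normalization, median centring, quantile normalization or an intensity trend with robust moderation. Stat2 lost its call without any 1 of E14.5 replicates 1, 2 and 3 and E15.5 replicates 1, 2 and 3 (-0.27 to -0.39) and with every probe set kept, array weights, cyclic loess normalization, median centring, quantile normalization or an intensity trend with robust moderation. B2m, the light chain of class I molecules, was not called (0.21 ± 0.13, adjusted p = 0.349).

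Genes of white blood cells were higher where they were called. Wfdc17, a secreted protein of myeloid cells, had values of 7.79, 7.44 and 7.56 at E14.5 and 9.38, 8.83 and 9.29 at E15.5, a rise of 1.57 ± 0.23 (adjusted p = 0.00214). Ccl9, a chemokine of myeloid cells, stood at 8.56, 8.30 and 8.20 at E14.5 and 8.94, 9.14 and 9.13 at E15.5, a rise of 0.72 ± 0.14. Ccr2, the receptor that draws monocytes, stood at 6.56, 6.65 and 6.68 at E14.5 and 7.10, 7.0 and 7.31 at E15.5, a rise of 0.51 ± 0.08. None of the 3 overlapped between the days, and none lost its call without any 1 array. Stfa2, a stefin of neutrophils whose family members are nearly identical, stood at 7.12, 5.68 and 6.67 at E14.5 and 9.09, 7.55 and 7.96 at E15.5, with a wider spread and a rise of 1.71 ± 0.33.

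By list, 3 of 20 neutrophil and monocyte genes, 2 of 12 mast cell genes, 3 of 19 lymphoid genes and 6 of 35 chemokine and complement genes were higher, with 0 lower in each and medians of 0.15, 0.40, 0.20 and 0.16. S100a8, a subunit of calprotectin, rose by 0.93 ± 0.20, and S100a9, its partner, by 0.90 ± 0.19. S100a8 lost its call without E14.5 replicate 2 (0.73, adjusted p = 0.0508) and E15.5 replicate 1 (0.84, adjusted p = 0.0766). S100a9 lost its call without E15.5 replicate 1 (0.66, adjusted p = 0.076). Tpsab1, a mast cell tryptase, stood at 6.38, 6.65 and 6.27 at E14.5 and 6.92, 6.97 and 6.96 at E15.5 and rose by 0.52 ± 0.10. Hdc, the enzyme that makes histamine, rose by 0.71 ± 0.16. Hdc lost its call without any 1 of E14.5 replicate 3 and E15.5 replicates 1 and 3 (0.52 to 0.66). Ptprc, the CD45 antigen of nucleated blood cells, stood at 8.25, 8.59 and 8.36 at E14.5 and 9.23, 8.82 and 8.86 at E15.5, a rise of 0.57 ± 0.12. Ptprc lost its call without E15.5 replicate 1 (0.44, adjusted p = 0.0621). Ccl11, a chemokine for eosinophils, rose by 0.58 ± 0.12. Ccl11 lost its call without E15.5 replicate 1 (0.48, adjusted p = 0.0642). Of macrophage genes 0 of 29 were called and 2 had an unadjusted p under 0.05, at a median of 0.11, and Lyz2, their lysozyme, had values of 11.70, 11.74 and 11.40 at E14.5 and 12.78, 12 and 12.33 at E15.5 (adjusted p = 0.228).

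These counts leaned on single arrays. Without E15.5 replicate 1 the 4 lists had 1, 1, 0 and 5 members higher, and without E15.5 replicate 2 they had 6, 3, 5 and 6. Without E14.5 replicate 3 they had 3, 1, 1 and 2, and without E15.5 replicate 3 they had 3, 1, 2 and 3. Leaving out E14.5 replicate 2 gave 2, 2, 1 and 4, and leaving out E14.5 replicate 1 gave 3, 3, 3 and 4. The medians moved too: with 1 array left out, that of neutrophil and monocyte genes ran from 0.09 without E15.5 replicate 1 to 0.41 without E15.5 replicate 2. For mast cell genes it ran from 0.25 without E14.5 replicate 3 to 0.49 without E14.5 replicate 2, and for lymphoid genes from 0.10 without E14.5 replicate 3 to 0.32 without E14.5 replicate 1. The mean level of the mast cell list was 8.45, 8.39 and 8.07 at E14.5 and 8.80, 8.60 and 8.75 at E15.5, with all E15.5 arrays above all E14.5 arrays, whereas the neutrophil and monocyte list overlapped at 8.14, 7.90 and 7.99 at E14.5 and 8.54, 7.93 and 8.30 at E15.5.

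Endothelial genes were all above 0 in difference, yet few passed the test. All 25 measured members had a higher mean at E15.5, the median was 0.46 (0.30 without E15.5 replicate 3), and 2 were called. Over all genes 10269 of 19296 had a higher mean. The members were read on the same 6 arrays, so their signs are not independent observations. Erg, a transcription factor of endothelium, differed by 0.59 ± 0.17, and Tal1, a factor of blood and vessel precursors, by 0.42 ± 0.10. Erg lost its call without any 1 of E14.5 replicates 1, 2 and 3 and E15.5 replicates 1 and 3 (0.38 to 0.66) and with every probe set kept or cyclic loess normalization. Tal1 lost its call without any 1 of E14.5 replicates 2 and 3 and E15.5 replicate 1 (0.34 to 0.38). Cdh5, the cadherin that defines endothelium, was not called (0.45 ± 0.45, adjusted p = 0.577). The list stood at 10.13, 10.24 and 10.38 at E14.5 and 10.77, 10.34 and 11 at E15.5, so E15.5 replicate 2 lay within the E14.5 range while E15.5 replicates 1 and 3 lay above it. Without E15.5 replicate 2, 5 members were higher, and without any 1 of the other arrays 0 or 1 were. The list of immediate early and heat shock genes, which respond to handling, had a median of 0.43, which was 0.17 without E15.5 replicate 3, and 2 of 25 higher, the transcription factors Egr3 (0.45 ± 0.13) and Klf2 (0.64 ± 0.18). Egr3 lost its call without any 1 of the 6 arrays, and Klf2 without any 1 other than E15.5 replicate 2. The list stood at 10.06, 10.20 and 9.98 at E14.5 and 10.19, 10.29 and 10.79 at E15.5, with E15.5 replicate 3 highest. Its part in these values was not tested.

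Of 28 genes of adipocytes and lipid handling, 4 were higher and 2 lower, at a median of 0.09. Fabp4, a fatty acid binding protein of adipocytes and capillary endothelium, had values of 7.37, 7.43 and 7.66 at E14.5 and 8.69, 8.35 and 8.96 at E15.5, a rise of 1.18 ± 0.17 (adjusted p = 0.00214), and it was called without any 1 array. Its FVF- means were 7.19 at E12.5 and 7.82 at E13.5, below every E15.5 value. Cd36, a fatty acid receptor, stood at 8.47, 9.27 and 9.48 at E14.5 and 10.03, 9.81 and 10.72 at E15.5, a difference of 1.11 ± 0.28. Cd36 lost its call without any 1 of E14.5 replicate 1 and E15.5 replicates 1 and 3 (0.81 to 1.19) and with cyclic loess normalization. Pparg, the transcription factor of fat cells, stood at 8.36, 8.37 and 8.41 at E14.5 and 8.78, 8.61 and 8.79 at E15.5, a small rise of 0.35 ± 0.09. Pparg lost its call without any 1 of E14.5 replicates 1, 2 and 3 and E15.5 replicates 1 and 3 (0.32 to 0.36) and with cyclic loess normalization, quantile normalization or an intensity trend with robust moderation. Adh1, an alcohol dehydrogenase that also oxidises retinol, rose by 0.79 ± 0.18. Adh1 lost its call without E14.5 replicate 3 (0.69, adjusted p = 0.0577) and E15.5 replicate 1 (0.72, adjusted p = 0.0766).

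The 2 lower members were Acaca and Sqle. Acaca, the carboxylase that commits carbon to fatty acid synthesis, stood at 11.16, 11 and 11.12 at E14.5 and 10.42, 10.51 and 10.57 at E15.5, a fall of -0.59 ± 0.10 (adjusted p = 0.00422). Sqle, an oxygenase of cholesterol synthesis, stood at 11.47, 11.42 and 11.36 at E14.5 and 10.88, 10.96 and 10.85 at E15.5, a fall of -0.52 ± 0.08 (adjusted p = 0.00335). Neither overlapped between the days, and both were called without any 1 array. Scd2, a fatty acid desaturase, was not called (-0.13 ± 0.09). The higher count of the list was 2 without any 1 of E14.5 replicates 1 and 3 and E15.5 replicates 1 and 3. Slc40a1, ferroportin, which exports iron, rose by 1.36 ± 0.24 from 9.93, 10.60 and 10.02 at E14.5 and 12.11, 11.08 and 11.44 at E15.5.

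In the mesenchyme list 2 of 28 genes were higher and 0 lower, and the median was 0.00. The 2 were Meox2, a homeobox factor of mesoderm, and Dpt, dermatopontin, a matrix protein of fibroblasts. Meox2 had values of 7.88, 8.32 and 8.16 at E14.5 and 9.25, 8.63 and 9.34 at E15.5, a rise of 0.95 ± 0.17 (adjusted p = 0.00603). Dpt stood at 8.28, 7.76 and 7.37 at E14.5 and 10.04, 8.55 and 9.42 at E15.5, so E15.5 replicate 2 was near the top of the E14.5 range but above it, and the difference was 1.53 ± 0.27 (adjusted p = 0.00454). Its FVF- means at the earlier days were 6.11 at E12.5 and 6.07 at E13.5. Col1a1, the main fibrillar collagen chain, was not called (0.00 ± 0.29, adjusted p = 0.997).

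Matrix genes were counted in 4 lists. Of 40 matricellular and other matrix genes 7 were higher and 0 lower, of 16 small leucine-rich proteoglycans 2 were higher, of 29 elastic fibre genes 1 was higher, and of 39 collagens 0 were called, at medians of 0.13, 0.17, -0.03 and 0.12. The proteoglycan count was 0 or 1 without any 1 array, and the elastic fibre count 0 to 2. Ccn3, a matricellular protein, had values of 7.69, 8.01 and 7.69 at E14.5 and 9.41, 8.56 and 8.87 at E15.5, a rise of 1.15 ± 0.17 (adjusted p = 0.00223), called without any 1 array. Lama2, a laminin chain of basement membranes, stood at 8.76, 9.32 and 9.08 at E14.5 and 9.90, 9.52 and 9.68 at E15.5, a rise of 0.65 ± 0.12. Igfbp7, an insulin-like growth factor binding protein of vessels and stroma, rose by 0.93 ± 0.23, and Igfbp6, a related protein, by 0.67 ± 0.15. Igfbp7 lost its call without any 1 of E14.5 replicates 1 and 3 and E15.5 replicates 1 and 3 (0.81 to 0.91). Igfbp6 lost its call without E14.5 replicate 3 (0.60, adjusted p = 0.0566) and E15.5 replicate 1 (0.55, adjusted p = 0.087). The matricellular count was 3 without E14.5 replicate 3 and without E15.5 replicate 1, and 6 to 8 without any other array.

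Ogn, osteoglycin, and Aspn, asporin, are small proteoglycans that bind collagen. Ogn stood at 10.20, 10.74 and 10.87 at E14.5 and 11.49, 12.10 and 11.32 at E15.5, a difference of 1.03 ± 0.29 (adjusted p = 0.0419), and Aspn at 9.98, 10.11 and 10.79 at E14.5 and 11.36, 11.43 and 11.08 at E15.5, a difference of 1.0 ± 0.26 (adjusted p = 0.0306). Neither overlapped between the days, but both calls were close to the threshold. Ogn lost its call without any 1 of E14.5 replicates 1, 2 and 3 and E15.5 replicates 1, 2 and 3 (0.80 to 1.19) and with array weights, cyclic loess normalization or an intensity trend with robust moderation. Aspn lost its call without any 1 of E14.5 replicates 1 and 2 and E15.5 replicates 1 and 2 (0.84 to 0.96) and with cyclic loess normalization. Bgn, biglycan of the same family, was not called (-0.17 ± 0.37). Eln, elastin, was the 1 elastic fibre gene called, at 0.45 ± 0.13. Eln lost its call without any 1 of E14.5 replicates 2 and 3 and E15.5 replicates 1 and 3 (0.28 to 0.50) and with every probe set kept, median centring or an intensity trend with robust moderation.

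In retinoic acid signalling 4 genes fell, Stra6, Rdh10, Rarb and Rxrg. Stra6, the receptor that takes retinol into cells, had values of 11.50, 10.97 and 10.91 at E14.5 and 9.72, 10.45 and 9.85 at E15.5, a fall of -1.12 ± 0.18 (adjusted p = 0.00354), with every E15.5 array below every E14.5 array and a call without any 1 array. Its FVF- means were 10.90 at E12.5 and 10.92 at E13.5, so the level had been flat before. Rdh10, which turns retinol into retinal, stood at 11.81, 11.88 and 12.20 at E14.5 and 11.42, 11.21 and 11.30 at E15.5, a difference of -0.65 ± 0.16. Rdh10 lost its call without any 1 of E14.5 replicate 3 and E15.5 replicates 1, 2 and 3 (-0.54 to -0.71) and with cyclic loess normalization or quantile normalization. Rarb, the receptor whose promoter is printed above, stood at 11.26, 11.19 and 11.23 at E14.5 and 10.56, 10.78 and 10.73 at E15.5, with a spread of 0.07 between its E14.5 arrays, and fell by 0.54 on the log2 scale (SE 0.12, adjusted p = 0.0167). Rarb lost its call without E15.5 replicate 1 (-0.47, adjusted p = 0.0863). Rxrg, a partner receptor, differed by -0.55 ± 0.16. Rxrg lost its call without any 1 of E14.5 replicates 1 and 3 and E15.5 replicates 1, 2 and 3 (-0.44 to -0.63) and with every probe set kept, array weights or cyclic loess normalization.

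Of 21 measured members of the retinoid list 4 were lower and 0 higher, at a median of -0.18. The number of lower members was 1 without E15.5 replicate 1, 2 without any 1 of E14.5 replicate 3 and E15.5 replicates 2 and 3, and 3 or 4 without the remaining ones. Aldh1a2, which makes retinoic acid in mesenchyme, was not called (-0.26 ± 0.20), nor were Cyp26b1 and Cyp26a1, which break it down (-0.01 ± 0.14 and 0.00 ± 0.10). The repeat, the retinoic acid response element with a spacer of 5 bases, was searched on both strands in RefSeq windows from 250 bases before to 50 after a start. It was held by 32 of 32851 windows (0.0974%). Of the retinoid members 16 had a window, with 29 windows in all, and 2 held the repeat, Rarb and Cyp26a1, of which only Rarb was called. The percentage counts windows and the 2 of 16 counts genes, so they are unlike measures. A match is a description of the letters and not evidence of binding.

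Hox genes, which give cells their position along the body axis, were called in both directions. They were parted by paralog group after their values were seen, so the split is a description. Among paralog groups 1 to 7, 5 of 19 genes were lower and 0 higher, with a median of -0.18. Among groups 8 to 10, 3 of 9 were higher and 0 lower, with a median of 0.21. Each gene called higher had a mean of 8.77 or less, the threshold for dim genes, on both days. Each gene called lower had a mean above 8.77 at E14.5. Whether the split follows signal level was not tested. Hoxa2 had values of 11.07, 10.92 and 10.78 at E14.5 and 9.82, 10.16 and 10.44 at E15.5, a difference of -0.78 ± 0.18. Hoxa2 lost its call without E15.5 replicate 1 (-0.62, adjusted p = 0.0921). Hoxb5 stood at 10.78, 10.52 and 10.31 at E14.5 and 9.69, 10.04 and 9.88 at E15.5, a difference of -0.67 ± 0.17. Hoxb5 lost its call without any 1 of E14.5 replicates 1 and 2 and E15.5 replicates 1 and 3 (-0.55 to -0.68) and with quantile normalization. Hoxc5 stood at 10.81, 9.74 and 10.23 at E14.5 and 9.30, 9.42 and 9.36 at E15.5, a difference of -0.90 ± 0.22. Hoxc5 lost its call without any 1 of E14.5 replicates 1 and 3 and E15.5 replicates 1 and 3 (-0.63 to -0.92) and with array weights.

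On the other side, Hoxa10 had values of 7.30, 7.0 and 7.11 at E14.5 and 7.80, 7.49 and 7.51 at E15.5, a rise of 0.46 ± 0.10. Hoxa10 lost its call without E15.5 replicate 1 (0.36, adjusted p = 0.0855). Hoxd9 stood at 7.65, 7.52 and 7.54 at E14.5 and 7.91, 8.05 and 7.93 at E15.5, a difference of 0.39 ± 0.09, with a narrow spread within each day. Hoxd9 lost its call without any 1 of E14.5 replicates 2 and 3 and E15.5 replicates 1 and 2 (0.35 to 0.42) and with cyclic loess normalization or quantile normalization. Hoxd8 differed by 0.47 ± 0.13. Hoxd8 lost its call without any 1 of E14.5 replicates 1, 2 and 3 and E15.5 replicates 1 and 3 (0.32 to 0.56) and with cyclic loess normalization or quantile normalization. Without E15.5 replicate 1, limma called 0 Hox genes in either direction. The other fits with 1 array left out called 1 or 2 higher and 2 to 4 lower. Of the 28 Hox genes 16 had a RefSeq window and 0 held the direct repeat. In FVF+ cells 9 Hox genes were higher and 0 lower over the same day, beside 14.7% higher and 10.8% lower over all genes in that sort.

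**Figure D4:**
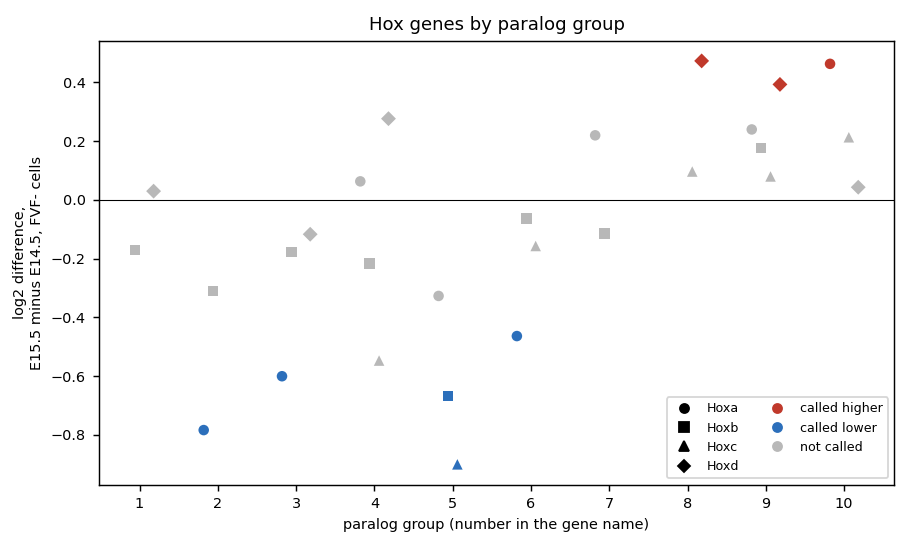
Each point is a Hox gene, with its paralog group on the horizontal axis and its log2 difference between E15.5 and E14.5 in FVF- cells on the vertical axis; shapes give the cluster and colours the call (limma, adjusted p under 0.05). The 5 genes called lower lie in groups 2 to 6 and the 3 called higher in groups 8 to 10. Those called higher had means of 8.77 or less, the threshold for dim genes, on both days.

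In the Wnt pathway, Lef1 and Axin2 were lower and Dkk1, Wif1, Sfrp4 and Wnt10a higher. The genes that rose had means of 8.77 or less, the threshold for dim genes, on both days. Lef1 and Axin2 had means above 8.77 at E14.5. Whether these calls follow signal level was not tested. Lef1, a transcription factor of the pathway that is also induced by it, had values of 10, 9.49 and 9.66 at E14.5 and 8.93, 8.95 and 8.77 at E15.5, a fall of -0.83 ± 0.15 (adjusted p = 0.0046) with no overlap and a call without any 1 array. Its FVF- means were 10.57 at E12.5 and 10.39 at E13.5. Axin2, the feedback inhibitor used as a readout of the pathway, stood at 10.51, 10.61 and 10.49 at E14.5 and 9.90, 10.09 and 9.98 at E15.5, a fall of -0.55 ± 0.11 (adjusted p = 0.0097). Axin2 lost its call without E15.5 replicate 1 (-0.50, adjusted p = 0.0529). Dkk1, an inhibitor that blocks the Wnt co-receptor, stood at 7.77, 7.70 and 7.54 at E14.5 and 8.0, 8.19 and 8.04 at E15.5, a rise of 0.41 ± 0.08, and it kept its call without any 1 array. Wif1, which binds Wnt ligands, differed by 0.53 ± 0.14, Sfrp4, a decoy receptor, by 0.38 ± 0.10, and Wnt10a, a ligand, by 0.37 ± 0.11. The decoy receptors Sfrp1 and Sfrp2 were not called (-0.57 ± 0.38 and -0.19 ± 0.23). Wif1 lost its call without any 1 of E14.5 replicates 2 and 3 and E15.5 replicate 1 (0.32 to 0.51) and with cyclic loess normalization or quantile normalization. Sfrp4 lost its call without any 1 of E14.5 replicates 1 and 3 and E15.5 replicates 1 and 2 (0.29 to 0.40) and with array weights, cyclic loess normalization or quantile normalization. Wnt10a lost its call without any 1 of E14.5 replicates 2 and 3 and E15.5 replicates 1, 2 and 3 (0.30 to 0.42) and with every probe set kept, cyclic loess normalization, median centring, quantile normalization or an intensity trend with robust moderation.

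In all, 4 of 48 Wnt genes were higher and 2 lower, at a median of -0.03, beside 1.84% and 4.65% of all genes. Higher members numbered 1 without E15.5 replicate 1 or E14.5 replicate 3 and 2 without E14.5 replicate 2, and lower ones 1 without E15.5 replicate 1. The letters CTTTGAT, the core that Lef1 and its relatives bind, were in 3.73% of RefSeq windows on either strand. Of the Wnt members 31 had a window, with 38 windows in all, and 3 held the letters, Sp5, Wnt11 and Wnt5b. These 3 are named because they hold the letters, and none was called. The percentage counts windows and the 3 of 31 counts genes, so they are unlike measures. Neither Axin2 nor Lef1 was among these. No match says only that these letters are not in this window.

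Of the other signals, Fgf7, a ligand that mesenchyme sends to epithelium, had values of 6.52, 6.35 and 6.43 at E14.5 and 7.25, 7.02 and 7.09 at E15.5 and rose by 0.69 ± 0.10 (adjusted p = 0.00214). It was the 1 of 26 FGF pathway genes called, and its call held without any 1 array. Fgf10, the ligand needed for growth of early pancreatic progenitors, was not called (0.21 ± 0.22, adjusted p = 0.59). In the hedgehog pathway 2 of 17 genes were lower, beside 4.65% of all genes, at a median of -0.24. They were Scube1, of a family that helps release the ligand, at -0.59 ± 0.16, and Sufu, an inhibitor inside the cell, at -0.42 ± 0.11. Scube1 lost its call without any 1 of E14.5 replicates 1, 2 and 3 and E15.5 replicates 1 and 3 (-0.50 to -0.65) and with cyclic loess normalization or quantile normalization. Sufu lost its call without any 1 of E14.5 replicate 1 and E15.5 replicates 1 and 3 (-0.34 to -0.44) and with cyclic loess normalization or quantile normalization. That count was 4 without E15.5 replicate 2, 1 without E14.5 replicate 2 or 3, and 0 without the others. Disp1 was not called by the probe set used (-0.27). In limma with every probe set kept, its unused probe set was lower (-0.55, adjusted p = 0.00632). Of 46 genes of TGF-beta and BMP signalling, 2 were higher, Inhba and Id4, and 2 lower, Bmp7 and Gdf11, at a median of 0.02, shares beside 1.84% and 4.65% of all genes. With 1 array left out 0 to 2 were higher and 0 or 1 lower. Id4, an inhibitor of helix-loop-helix factors (0.38 ± 0.11), Bmp7, a BMP ligand (-0.47 ± 0.13), and Gdf11, a related ligand (-0.36 ± 0.09), were near the threshold. Id4 lost its call without any 1 of E14.5 replicates 1, 2 and 3 and E15.5 replicates 1, 2 and 3 (0.32 to 0.41) and with array weights, median centring or an intensity trend with robust moderation. Bmp7 lost its call without any 1 of E14.5 replicates 1 and 3 and E15.5 replicates 1 and 3 (-0.40 to -0.46) and with array weights, cyclic loess normalization or quantile normalization. Gdf11 lost its call without any 1 of E14.5 replicates 1 and 2 and E15.5 replicates 2 and 3 (-0.31 to -0.37) and with cyclic loess normalization or quantile normalization. Inhba, an activin chain, rose by 0.40 ± 0.09. Inhba lost its call without E15.5 replicate 1 (0.37, adjusted p = 0.0681) and with cyclic loess normalization or quantile normalization.

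Growth factors of the stroma and their receptors had 3 of 34 members lower and 0 higher, at a median of 0.01, beside 4.65% lower and 1.84% higher over all genes. Nrg1, a neuregulin that acts on ErbB receptors, stood at 9.56, 10.05 and 9.90 at E14.5 and 8.74, 9.34 and 9.08 at E15.5, a fall of -0.78 ± 0.16. Nrg1 lost its call without E15.5 replicate 1 (-0.63, adjusted p = 0.0709). Gfra2, a receptor for neurturin, differed by -0.74 ± 0.18. Gfra2 lost its call without any 1 of E14.5 replicate 1 and E15.5 replicates 1 and 3 (-0.53 to -0.77). The lower count was 0 without E15.5 replicate 1, 1 without E14.5 replicate 1 and without E15.5 replicate 3, and 3 or 4 without any other array.

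Of the oncofetal and heterochronic genes, 4 of 26 were lower and 0 higher, at a median of -0.09. Prtg, protogenin, a membrane protein of early mesoderm and neural tissue, had values of 10.28, 10.47 and 10.51 at E14.5 and 9.49, 9.78 and 9.55 at E15.5, a fall of -0.81 ± 0.13 (adjusted p = 0.00287). Igf2bp1, an RNA-binding protein of fetal tissue, stood at 11.16, 11.25 and 11.29 at E14.5 and 10.38, 10.72 and 10.65 at E15.5, a fall of -0.65 ± 0.12 (adjusted p = 0.00741). Neither overlapped and both were called without any 1 array. FVF- means of Prtg were 10.99 at E12.5 and 11.10 at E13.5. The remaining 2 called were the homeobox factors Meis1 (-0.44 ± 0.11) and Meis2 (-0.44 ± 0.11), partners of Hox proteins. Meis1 lost its call without any 1 of E14.5 replicates 1 and 3 and E15.5 replicates 1 and 3 (-0.39 to -0.45) and with cyclic loess normalization or quantile normalization. Meis2 lost its call without any 1 of E14.5 replicate 3 and E15.5 replicates 1 and 3 (-0.33 to -0.45) and with cyclic loess normalization or quantile normalization. The count was 2 without any 1 of E14.5 replicate 3 and E15.5 replicates 1 and 3.

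Of neuronal genes, 2 were lower. Nefl, a neurofilament chain, had values of 11.66, 11.23 and 11.62 at E14.5 and 10.42, 10.87 and 10.43 at E15.5, a difference of -0.93 ± 0.21. Nefl lost its call without E15.5 replicate 1 (-0.85, adjusted p = 0.0752) and E15.5 replicate 3 (-0.86, adjusted p = 0.0528). Chrna3, a nicotinic receptor subunit of autonomic neurons, differed by -0.66 ± 0.16. Chrna3 lost its call without E14.5 replicate 2 (-0.53, adjusted p = 0.0695) and E15.5 replicate 1 (-0.50, adjusted p = 0.112). These were 2 of 20 members called, beside 4.65% of all genes called lower. In the list 17 members had a lower mean at E15.5, beside 8964 of 19296 over all genes, and the median was -0.29. The list stood at 9.51, 9.45 and 9.20 at E14.5 and 8.97, 9.13 and 9.14 at E15.5, with the days apart. Its count was 0 without E15.5 replicate 1, 4 without E14.5 replicate 3 and 1 without E14.5 replicate 2. Among 16 glial and neural crest genes only Sox10, their defining factor, was called, at -0.46 ± 0.13, beside a list median of 0.05. Sox10 lost its call without any 1 of E14.5 replicates 1 and 2 and E15.5 replicates 1 and 3 (-0.35 to -0.47) and with cyclic loess normalization, median centring, quantile normalization or an intensity trend with robust moderation.

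Falls outside these lists included receptors and channels. Ntsr1, a receptor for neurotensin, had values of 10.07, 9.24 and 9.52 at E14.5 and 8.09, 8.70 and 8.23 at E15.5, a fall of -1.27 ± 0.21 (adjusted p = 0.00369) that was called without any 1 array. Tac2, the gene of neurokinin B, stood at 11.43, 10.40 and 10.92 at E14.5 and 9.37, 9.84 and 9.71 at E15.5, a difference of -1.28 ± 0.30. Tac2 lost its call without E14.5 replicate 1 (-1.02, adjusted p = 0.0659) and E15.5 replicate 1 (-1.14, adjusted p = 0.0917). Amot, angiomotin, a scaffold that binds YAP, stood at 11.43, 11.47 and 11.60 at E14.5 and 10.05, 10.99 and 10.56 at E15.5, a fall of -0.97 ± 0.19 that no single array ended. Trpc5, a cation channel, differed by -1.07 ± 0.26. Trpc5 lost its call without any 1 of E14.5 replicates 2 and 3 and E15.5 replicates 1 and 3 (-0.75 to -1.08). Acot2, a mitochondrial thioesterase, differed by -1.16 ± 0.27 beside -1.04 in FVF+ cells. Acot2 lost its call without any 1 of E14.5 replicate 1 and E15.5 replicates 1 and 3 (-1.0 to -1.13).

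Markers of neighbouring organs had 3 of 24 members higher and 1 lower. Nkx2-5, a factor of the heart and of the spleen anlage, had values of 9.88, 9.79 and 9.47 at E14.5 and 10.99, 10.28 and 10.39 at E15.5, a rise of 0.84 ± 0.19. Nkx2-5 lost its call without E14.5 replicate 3 (0.72, adjusted p = 0.0692) and E15.5 replicate 1 (0.62, adjusted p = 0.103). Nr5a1, a factor of adrenal and gonad, rose by 0.43 ± 0.09. Nr5a1 lost its call without E15.5 replicate 1 (0.39, adjusted p = 0.0529). Hsd3b6, a steroid dehydrogenase of the adrenal, stood at 8.75, 7.02 and 9.86 at E14.5 and 6.96, 6.61 and 6.62 at E15.5, so the fall of -1.81 ± 0.45 rested on high values in E14.5 replicates 1 and 3. Hsd3b6 lost its call without any 1 of E14.5 replicates 1 and 3 and E15.5 replicates 1, 2 and 3 (-1.16 to -1.93) and with array weights. Whether tissue at the edge of the dissection contributed was not tested. The list had 0 calls without E15.5 replicate 1, 1 higher without E14.5 replicate 3, and 2 to 4 higher without any other array; its median was 0.12.

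Among small RNA genes, Mir199b, whose mature sequence is printed above, had values of 8.89, 8.08 and 8.59 at E14.5 and 6.37, 7.66 and 6.64 at E15.5, a fall of -1.63 ± 0.35 (adjusted p = 0.0135), with every E15.5 array lower. Mir199b lost its call without E15.5 replicate 1 (-1.37, adjusted p = 0.0803). Mir199a-1, a gene of the identical mature arm, differed by -0.22 ± 0.13 (adjusted p = 0.341). Of 296 microRNA genes 6 were higher and 1, Mir199b, was lower, at a median of 0.04, beside 1.84% higher and 4.65% lower over all genes. The 6, listed after their values were seen, were Mir185, Mir187, Mir219a-1, Mir328, Mir92b and Mir99b, with differences from 0.29 to 0.50, and in FVF+ cells each differed by 0.48 to 0.78. The probes may read the precursor as well as the mature form.

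Small nucleolar RNA genes, which guide the modification of ribosomal RNA, had 5 of 50 members lower and 0 higher, at a median of -0.30. Snord61 had values of 7.29, 7.44 and 6.89 at E14.5 and 6.02, 6.02 and 5.96 at E15.5, a fall of -1.21 ± 0.18 (adjusted p = 0.00214), called without any 1 array. Snord33 and Snord52 differed by -1.07 ± 0.31 and -1.03 ± 0.28. Snord33 lost its call without any 1 of E14.5 replicates 1 and 2 and E15.5 replicates 1 and 3 (-0.93 to -0.97) and with every probe set kept, cyclic loess normalization, median centring, quantile normalization or an intensity trend with robust moderation. Snord52 lost its call without any 1 of E14.5 replicates 1 and 2 and E15.5 replicates 1 and 3 (-0.83 to -1.09) and with cyclic loess normalization. In FVF+ cells 12 of the 50 were higher and 3 lower, at a median of 0.39, beside 14.7% higher and 10.8% lower over all genes in that sort.

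Some lists had no called member in limma. Over all genes 4669 (24.2%) had an unadjusted p under 0.05, and the unadjusted counts that follow are to be read against that share. Notch signalling had 0 of 22 called and 11 at that level, and without E15.5 replicate 2 it had 4 members higher. Collagens had 0 of 39 called and 9 at that unadjusted level, axon guidance 0 of 34 and 5, macrophages 0 of 29 and 2, endocrine genes 0 of 23 and 3, and imprinted growth regulators 0 of 21 and 4. Smooth muscle and pericyte genes had 0 of 17 called and 4 unadjusted, with 3 higher without E15.5 replicate 2. Epithelial genes had 0 of 21 at either level, and megakaryocyte genes 0 of 10 and 1. Krt8, a keratin of simple epithelia, had values of 11.29, 10.27 and 11.08 at E14.5 and 11.17, 11.34 and 11.09 at E15.5, with E14.5 replicate 2 lowest, and Neurog3, the factor of endocrine precursors, stood at 8.78, 7.57 and 9.38 at E14.5 and 7.63, 8.80 and 8.0 at E15.5.

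A few lists had 1 or 2 calls, to be read beside 1.84% higher and 4.65% lower over all genes. Msln, mesothelin of the lining layer, was the 1 of 10 mesothelial genes called, at 0.35 ± 0.09. Msln lost its call without any 1 of E14.5 replicates 1, 2 and 3 and E15.5 replicates 1 and 3 (0.28 to 0.36) and with cyclic loess normalization or quantile normalization. Of 29 matrix proteases and their inhibitors, Mmp23, a membrane metalloproteinase, was higher (0.46 ± 0.13) and Adamts9, a secreted protease, lower (-0.55 ± 0.13). Mmp23 lost its call without any 1 of E14.5 replicates 2 and 3 and E15.5 replicates 1 and 3 (0.35 to 0.49). Adamts9 lost its call without E14.5 replicate 3 (-0.51, adjusted p = 0.0575) and E15.5 replicate 1 (-0.43, adjusted p = 0.0973) and with cyclic loess normalization. Of its unused probe sets, those at -0.50 and -0.82 were called lower with every probe set kept, and those at -0.27, -0.40 and -0.27 were not. Car9, a carbonic anhydrase induced by low oxygen, and Adm, adrenomedullin, were the 2 of 23 hypoxia and glycolysis genes called, at 0.71 ± 0.17 and 0.51 ± 0.14. Car9 lost its call without any 1 of E14.5 replicates 1 and 2 and E15.5 replicates 1, 2 and 3 (0.54 to 0.80). Adm lost its call without any 1 of E14.5 replicates 1, 2 and 3 and E15.5 replicates 1, 2 and 3 (0.44 to 0.57) and with cyclic loess normalization, median centring or quantile normalization. The cell cycle list had 1 of 36 called, Cdkn1b, an inhibitor of the cycle, at 0.39 ± 0.11. Cdkn1b lost its call without any 1 of E14.5 replicates 1 and 2 and E15.5 replicates 1 and 3 (0.29 to 0.43) and with probe sets averaged or an intensity trend with robust moderation. Vim, the intermediate filament of mesenchyme, differed by -0.03 ± 0.08 (adjusted p = 0.856).

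The same day was set against FVF+ cells, where 2844 genes were higher (14.7%) and 2087 lower (10.8%). Of the FVF- rises 131 were also rises in FVF+ cells, which is 36.9% of the FVF- and 4.61% of the FVF+ rises. Of the FVF- falls 241 were shared, 26.8% of the FVF- and 11.6% of the FVF+ falls. A further 15 genes were higher in FVF- and lower in FVF+ cells, and 16 the reverse. Whether a gene's step differed between the sorts was tested as an interaction, which called 676 genes (3.5%), 396 with the FVF- step minus the FVF+ step above 0 and 280 with it below 0. Of the genes called in FVF- cells, 175 were among them, 54 rises and 121 falls.

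Among them were several of the genes described above. Ccn3 was -0.18 in FVF+ cells (adjusted p = 0.433), and the difference of its steps was 1.33 ± 0.24 (adjusted p = 0.00759). Fabp4 and Meox2 had differences of 1.45 ± 0.24 and 1.26 ± 0.25, and Ifi203 and Ifi205 of 1.15 ± 0.22 and 0.96 ± 0.13. Lef1, Stra6 and Ntsr1 were on the other side, at -1.01 ± 0.21, -1.34 ± 0.26 and -1.57 ± 0.29. These 8 held their interaction call without any 1 of the 12 arrays.

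Some acinar genes rose in both sorts. Cela3b rose by 1.75 in FVF- and 2.17 in FVF+ cells, and the difference of the steps was -0.42 ± 0.40 (adjusted p = 0.585), which was not called. Rnase1 rose by 1.84 and 2.70, and its difference of -0.86 ± 0.52 (adjusted p = 0.353) was not called either. For Try10 the FVF+ level was already high, at 11.60 at E14.5 and 12.08 at E15.5, and its step was larger in FVF- cells by 2.01 ± 0.49 (adjusted p = 0.0324). That interaction lost its call without any 1 of FVF- E14.5 replicate 2, FVF- E15.5 replicate 3, and replicates 1 and 3 of FVF+ cells at either day, with values of 1.5 to 2.43 over all alternatives. Prtg and Igf2bp1 fell in FVF- cells beside FVF+ differences of -0.35 and -0.67, with no call on the difference of steps (adjusted p = 0.15 and 0.968). Hbb-y differed by 0.56 in FVF+ cells, but the interaction was not called (-3.05 ± 0.95, adjusted p = 0.0762).

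The count of 676 depended on single arrays, above all on FVF+ E14.5 replicate 2, without which 1223 genes were above and 795 below. It was 130 and 75 without FVF+ E14.5 replicate 1, 112 and 51 without FVF+ E14.5 replicate 3, and 143 and 98 without FVF+ E15.5 replicate 1. Among FVF- arrays it was 143 and 87 without E15.5 replicate 3, 233 and 161 without E15.5 replicate 2, and 259 and 214 without E14.5 replicate 2. Without any 1 of the remaining arrays it ran from 284 to 545 above and from 159 to 326 below.

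**Figure D5:**
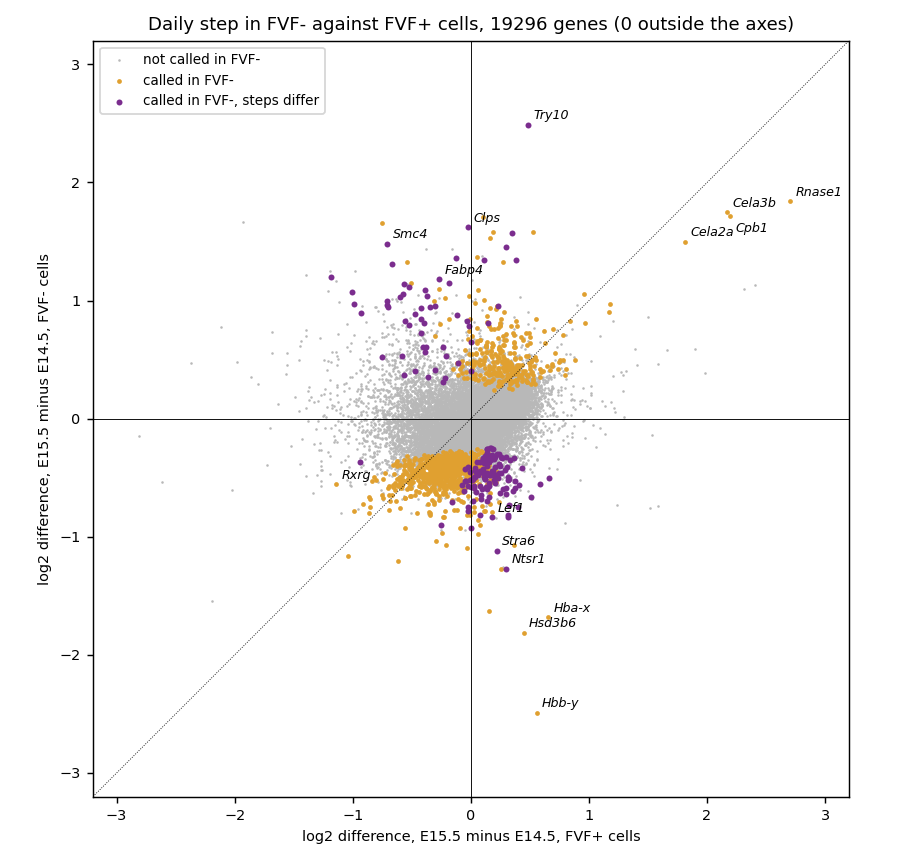
Each point is a gene, with its log2 difference between E15.5 and E14.5 in FVF+ cells on the horizontal axis and in FVF- cells on the vertical axis; orange points were called in FVF- cells, purple points were also called for a difference between the sorts, and the dotted line marks equal steps. Cela3b and Rnase1 rose in both sorts and were not called for a difference, whereas Try10, Clps and Fabp4 were called above the dotted line and Stra6, Ntsr1 and Lef1 below it.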

How the data were processed

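The values were the deposited log2 signals of 21 arrays, which the authors made by RMA with affy 1.44.0, per the submitters' processing notes; the labels' protocols give Qiagen RNeasy purification and Ambion and Affymetrix whole-transcript labelling. No source used here states how probe sets were defined. Of 23305 probe sets, 20728 had exactly 1 symbol in the platform annotation, 1174 several and 1403 none, and values ran from 4.0 to 15.31 with array medians of 8.68 to 8.82. For 804 genes with several probe sets the one brightest over all arrays was kept, which left 19296 genes.

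In limma 3.58.1 (R 4.3.3), lmFit estimated the 8 group means from the 21 arrays, with 13 residual degrees of freedom, and eBayes moderated the variances. Tests were two-sided, with Benjamini-Hochberg adjustment over all genes within each comparison: the FVF- step, the FVF+ step and the difference between them. Genes under an adjusted p of 0.05 are those called. Errors are moderated SE (n = 3 arrays per group), so precision is limited by how few arrays there are. The steps were tested on simulated data.

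Named genes were the 15 largest rises and 15 largest falls among called genes with no overlap between the days' arrays, up to 5 called members per direction and 2 not called from each of 39 lists (939 measured genes, some in several lists), the 5 largest interactions in each direction, Foxa2 and the first gene of each list; predicted genes were passed over. Aldh1a2, Cyp26a1, Cyp26b1, Fgf10, Klf1, Mir199a-1, Sp5, Try5, Wnt11, Wnt5b and the 6 microRNA genes that rose fall outside this rule and were chosen after their values were seen. The members and lists were chosen with earlier results of these data known. Lists are described by counts and medians and were not tested. Alternatives were other normalizations, probe set rules, a filter on dim genes, moderation, array weights, fewer arrays, a block and leaving out each array. Promoter and microRNA sequences came from RefSeq tables (GRCm38.p6).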

Additional observations from a re-analysis of the deposited data

Results flagged for a closer look

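The E14.5 to E15.5 step differed between FVF- and FVF+ cells for 676 genes by the interaction test in limma. Each value that follows is the FVF- step minus the FVF+ step on the log2 scale, for genes named by rule. Above 0 were the interferon-inducible genes Ifi203 at 1.15 and Ifi205 at 0.96, the myeloid gene Wfdc17 at 1.22, and the trypsinogen Try10 and colipase, Clps, at 2.01 and 1.65. Among stromal and vessel genes were Ccn3 at 1.33, Meox2 at 1.26, Fabp4 at 1.45, Cd36 at 1.64, Igfbp7 at 1.36, Ogn at 1.64, Slc40a1 at 1.49, Timp3 at 0.84, Vim at 0.45 and Pdgfa at 1.04. Further ones were B2m at 0.82, Fabp7 at 2.11, Pcna at 0.60 and Smc4 at 2.19. Not all of these rose in FVF- cells. There Timp3 (0.19), Vim (-0.03), Pdgfa (0.25), B2m (0.21), Fabp7 (0.55) and Pcna (0.16) were not called.

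The largest differences between the steps were Hmgn5 at 3.60, Zfp141 at 2.89, Scoc at 2.84, Ly96 at 2.66 and Zfp985 at 2.62. In FVF- cells none of these 5 was called, and in FVF+ cells all were lower, so a change in FVF+ cells made up much of each value. With probe sets of a gene averaged, the values were 1.43 for Scoc, 1.56 for Zfp141 and 1.47 for Zfp985. The unused probe set of each differed in FVF- cells by 0.19, 0.04 and 0.13. Hmgn5 stood at 6.40, 6.02 and 7.60 at E14.5 and 8.29, 8.26 and 8.47 at E15.5 in FVF- cells and at 9.76, 8.73 and 10.06 at E14.5 and 7.22, 7.46 and 8.07 at E15.5 in FVF+ cells. Scoc stood at 8.84, 8.47 and 9.25 at E14.5 and 8.67, 9.86 and 9.44 at E15.5 in FVF- cells and at 10.04, 9.50 and 10.41 at E14.5 and 7.24, 7.88 and 7.73 at E15.5 in FVF+ cells.

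Below 0 were Stra6 at -1.34, Ntsr1 at -1.57, Lef1 at -1.01, Alas2 at -1.14, Tbxas1 at -1.67 and Slc26a9 at -1.60. Of the Hox genes Hoxb5 was at -1.18, Hoxa3 at -0.87 and Hoxa6 at -0.72. Stra6, Ntsr1 and Lef1 fell in FVF- cells (-1.12, -1.27 and -0.83) and were not called in FVF+ cells (0.22, 0.30 and 0.18). Tbxas1 and Slc26a9 were not called in FVF- cells (-0.14 and 0.38) and were higher in FVF+ cells (1.53 and 1.98). None of these values changed sign under the alternatives tried, of which the fit to the 12 arrays alone and other moderation leave each value unchanged.

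Of the genes named here, Ccn3, Meox2, Fabp4, Ifi203, Ifi205, Scoc, Alas2, Stra6, Ntsr1, Lef1 and Tbxas1 were called in all 12 fits that left out 1 array. Zfp985 and Hoxb5 were called in 11, losing the call without FVF+ E14.5 replicate 3. The other 20 were called in 1 (Vim) to 9 (Pdgfa, Slc26a9) of the 12.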

How the results depend on the processing

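Every one of the 1253 calls kept its direction under each alternative in which it was tested. Dropping dim genes (10090 kept, threshold 8.77) tested 1013 of them. The dim filter, other moderation, fits to fewer groups and the replicate block leave each log2 difference unchanged, so those directions were fixed in advance. Leaving out 1 array could not turn the sign of the 340 rises and 884 falls without overlap between the days. The count of rises, 355, was 225 without dim genes, 535 with array weights, 1 with the 6 arrays alone and 30 with the FVF- arrays alone, and 90 to 337 with 1 array left out. The count of falls, 898, was 544 after quantile normalization, 367 after cyclic loess normalization, 0 with the 6 arrays alone and 93 with the FVF- arrays alone, and 208 to 819 with 1 array left out. Fits with fewer arrays have fewer residual degrees of freedom and also another pooled spread, and the cause of these shifts was not tested. The standard deviation of an array's deviations from its group mean was 0.21, 0.15 and 0.18 in FVF- cells at E14.5. It was 0.14, 0.13 and 0.12 at E15.5, and 0.09 to 0.20 in the other arrays of the series. Deviations of FVF- arrays with the same number at E14.5 and E15.5 correlated at 0.10, -0.09 and 0.21, and others at -0.20 to 0.08. Between FVF- and FVF+ arrays at E15.5, same numbers gave 0.20, 0.14 and 0.08 and others -0.16 to 0.03. At E14.5 these were -0.37, -0.22 and 0.49, and -0.54 to 0.58. Whether equal numbers share a sort is not said, and the main fits treated arrays as independent. With a replicate block limma called 0 genes higher and 0 lower, while 3919 had an unadjusted p under 0.05.

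For the difference between sorts, 396 above and 280 below, the counts were 1239 and 930 with array weights (whose estimation stopped before full convergence), 185 and 92 with the 12 arrays alone, 221 and 63 with a replicate block, and 112 to 1223 and 51 to 795 with 1 array left out. Leaving out FVF- E14.5 replicate 1 and FVF+ E14.5 replicate 2 together, which deviate alike (r = 0.58) and were chosen after seeing the data, gave 1022 and 588. Of the 112 named genes called, 34 were still called without E15.5 replicate 1, 58 to 90 without any other array, 70 after cyclic loess normalization and 24 with the FVF- arrays alone. Of those 112 genes, 79 passed the filter on dim genes and were still called with it. Ifi203, Ifi205, Fgf7, Ccr2, Tpsab1 and Snord61 were among those that did not pass. Signal over background is not given for these arrays, so which dim genes were measured above it is unknown.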
